A study of Homo sapiens with 6 samples.

Results

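The mitochondrial ribosomal protein genes were taken from the RNA-seq count table of parental ZR-75-1 cells, an established ER-positive human breast cancer line, as all identifiers whose symbol belongs to a protein-coding gene and begins with MRPL or MRPS followed by a digit. This rule found 78 genes of 60656 identifiers in the table, and it used no measured value. One group of 3 libraries came from cells given 500 nM abemaciclib, an inhibitor of the kinases CDK4 and CDK6, for 4 days. The other group of 3 libraries came from cells given the same volume of DMSO, the solvent of the drug, for 4 days. All 6 libraries were from the same parental line in medium with serum, with no gene deleted, and the study describes the replicates as biologically independent samples of a single experiment. Libraries of RB1 knockout cells are not analysed here.

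The mitochondrial ribosome, or mitoribosome, sits in the mitochondrial matrix and translates the few messenger RNAs made from mitochondrial DNA, all of which encode subunits of the respiratory chain and the ATP synthase. Its RNAs come from the mitochondrial genome, whereas every one of its proteins is encoded in the nucleus, made in the cytosol and imported. Some of these proteins have counterparts in the bacterial ribosome and others are found in mitochondria only. In breast epithelial cells as elsewhere, dividing cells need new mitoribosomes. YY1, NRF1 and ETS-family factors such as GABPA are known regulators of many nuclear genes for mitochondrial proteins.

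With 4 days of abemaciclib 14 mitochondrial ribosomal protein genes changed in level and the other 59 tested did not pass the threshold. Of the 78 genes, 73 had enough counts for a test, and 11 of them (15.1%) had lower and 3 (4.11%) had higher levels under abemaciclib, with 0.05 as the threshold on the adjusted P. Over all 10863 genes tested, 13.3% were lower, 12.5% were higher and 25.7% passed in either direction, against 19.2% of the mitochondrial ribosomal protein genes. The share of the family that was lower therefore lay near the share of all genes, and the share that was higher lay below it. The 11 lower genes were MRPL1, MRPL11, MRPL22, MRPL39, MRPL48, MRPL51, MRPL52, MRPL54, MRPS5, MRPS18C and MRPS33, and the 3 higher genes were MRPS2, MRPS23 and MRPS25. None of the 73 genes changed by more than 1 on the log2 scale, a size that 1135 of all genes tested passed. The test was edgeR's quasi-likelihood test, and P was adjusted over the whole table by the Benjamini–Hochberg method. The count of lower genes was 6 without DMSO replicate 3 and 7 without abemaciclib replicate 2, and the count of higher genes was 5 without abemaciclib replicate 2. Over all genes tested, 1442 were lower with all libraries, 1216 without DMSO replicate 3 and 1207 without abemaciclib replicate 2. The higher genes were 1354 with all libraries and 1072 without abemaciclib replicate 2.

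The libraries were of similar depth, with 3317860 to 4013156 counts each, and the limit that a count of 0 allows (3 counts, counting error only) was 0.74 to 0.909 CPM, the counts scaled by the TMM method to a common library size. Because the library kit captures transcripts at their polyadenylated 3′ ends, long and short transcripts yield 1 count alike. CPM can thus be set side by side between genes without a correction for length. This does not hold for genes whose 3′ end overlaps another gene, because their counts are uncertain. All 8 luminal epithelial markers were tested, with 0.742% to 0.79% of counts in the DMSO libraries and 0.827% to 0.946% in the abemaciclib libraries. They did not move together: ESR1 (log2 fold change 0.83) and KRT19 (0.45) were higher, KRT18 (−0.34) was lower and 5 did not pass. Of 9 fibroblast, immune and endothelial markers COL1A2, PTPRC, LYZ and PECAM1 were at 0 in every library and COL1A1 alone had enough counts for a test, and the summed level of the list was 11.6 to 16.1 CPM with DMSO and 10.4 to 16.2 CPM with abemaciclib. All 6 proliferation markers were lower, from 0.288% to 0.304% of counts with DMSO to 0.0232% to 0.0238% with abemaciclib, and their part in the results below was not tested. In bulk RNA a lower count cannot be told apart as fewer cells that express a gene or as less RNA per cell.

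The promoters of 6 of the genes that passed the threshold are shown as examples with and without short motifs of the regulators named above, in either direction of change. Each is the RefSeq window of GRCh38.p14 from 250 bases before to 50 bases after the transcription start, written 5′ to 3′ on the strand of the gene. Capitals mark matches on either strand to an ETS motif (CCGGAAG, or CTTCCGG on the other strand), a YY1 motif (AAGATGGC, or GCCATCTT) and an NRF1 motif (GCATGCGC, or GCGCATGC). The first 4 genes were lower and the last 2 higher with abemaciclib. The windows are at chr12:6493213-6493512 (minus strand) for MRPL51, chr14:22829637-22829936 (plus strand) for MRPL52, chr5:154940823-154941122 (plus strand) for MRPL22, chr11:66438799-66439098 (minus strand) for MRPL11, chr17:57849995-57850294 (minus strand) for MRPS23 and chr3:15065266-15065565 (minus strand) for MRPS25.
MRPL51: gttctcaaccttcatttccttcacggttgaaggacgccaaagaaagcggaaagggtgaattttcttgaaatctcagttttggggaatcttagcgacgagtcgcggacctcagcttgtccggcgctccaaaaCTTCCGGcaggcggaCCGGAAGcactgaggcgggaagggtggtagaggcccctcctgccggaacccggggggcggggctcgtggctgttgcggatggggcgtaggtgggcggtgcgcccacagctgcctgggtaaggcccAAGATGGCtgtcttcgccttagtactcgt
MRPL52: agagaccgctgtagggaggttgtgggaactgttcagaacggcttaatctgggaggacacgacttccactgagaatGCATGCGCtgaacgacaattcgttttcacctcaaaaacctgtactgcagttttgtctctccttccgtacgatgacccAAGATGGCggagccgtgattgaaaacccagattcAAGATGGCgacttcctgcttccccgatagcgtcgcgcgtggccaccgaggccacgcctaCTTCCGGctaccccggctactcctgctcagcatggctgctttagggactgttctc
MRPL22: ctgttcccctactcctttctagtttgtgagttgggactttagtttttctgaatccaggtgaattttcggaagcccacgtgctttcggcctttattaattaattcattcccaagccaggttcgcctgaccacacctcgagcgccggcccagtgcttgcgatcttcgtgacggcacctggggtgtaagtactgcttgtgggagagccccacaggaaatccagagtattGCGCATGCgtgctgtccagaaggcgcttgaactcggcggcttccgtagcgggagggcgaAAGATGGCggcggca
MRPL11: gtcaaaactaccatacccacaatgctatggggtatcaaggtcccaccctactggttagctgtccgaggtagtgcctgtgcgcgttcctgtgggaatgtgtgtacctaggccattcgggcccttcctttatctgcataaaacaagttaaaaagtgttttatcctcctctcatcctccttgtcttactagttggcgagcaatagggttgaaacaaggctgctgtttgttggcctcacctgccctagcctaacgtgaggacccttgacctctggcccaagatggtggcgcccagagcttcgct
MRPS23: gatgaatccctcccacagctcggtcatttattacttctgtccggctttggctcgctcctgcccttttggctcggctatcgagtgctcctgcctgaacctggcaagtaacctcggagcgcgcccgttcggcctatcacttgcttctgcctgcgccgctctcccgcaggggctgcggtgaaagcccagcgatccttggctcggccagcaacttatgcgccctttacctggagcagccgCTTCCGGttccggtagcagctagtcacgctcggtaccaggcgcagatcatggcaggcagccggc
MRPS25: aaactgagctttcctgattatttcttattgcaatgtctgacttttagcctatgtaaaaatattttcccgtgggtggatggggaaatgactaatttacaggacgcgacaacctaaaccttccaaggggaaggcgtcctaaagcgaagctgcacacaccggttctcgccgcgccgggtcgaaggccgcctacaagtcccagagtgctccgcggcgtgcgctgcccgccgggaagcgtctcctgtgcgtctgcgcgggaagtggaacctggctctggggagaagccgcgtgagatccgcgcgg

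In the MRPL51 window 2 ETS matches lay from 119 to 113 and from 104 to 98 bases before the start, and a YY1 match lay 22 to 29 bases into the transcript. The MRPL52 window held an NRF1 match 175 to 168 bases before the start, 2 YY1 matches and an ETS match across the start itself. In MRPL22 an NRF1 match and a YY1 match stood on either side of the start. MRPS23 held 1 ETS match, from 14 to 8 bases before the start, and MRPL11 and MRPS25 held no match to any of the 3 motifs.

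A window was given for 69 of the 78 genes, all 14 that passed the threshold among them. The ETS motif was in 29 of the 69 windows (42.0%), against 21.2% of the 8589 windows of genes tested and 10.7% of all 27305 windows. The YY1 motif was in 20 (29.0%), against 6.16% of the genes tested and 3.03% of all windows. Together, 41 windows (59.4%) held at least 1 of these 2 motifs, against 25.9% of the genes tested, and 8 held both. The other 4 motifs were nearer to the shares of the genes tested. The NRF1 motif was in 6 windows (8.7%, against 6.02%), the E-box CACGTG, which MYC binds, in 6 (8.7%, against 10.5%), the E2F motif TTTCCCGC in 1 (1.45%, against 2.83%) and the Sp1 motif GGGCGG in 42 (60.9%, against 72.7%). All motifs were searched on both strands, and no motif of this set is contained in another. The YY1 motif contains ATG, and whether a match is the start codon of the protein was not tested. Windows were not given for MRPL2, MRPL10, MRPL13, MRPL15, MRPL21, MRPL23, MRPL35, MRPS28 and MRPS36.

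**Figure D1:**
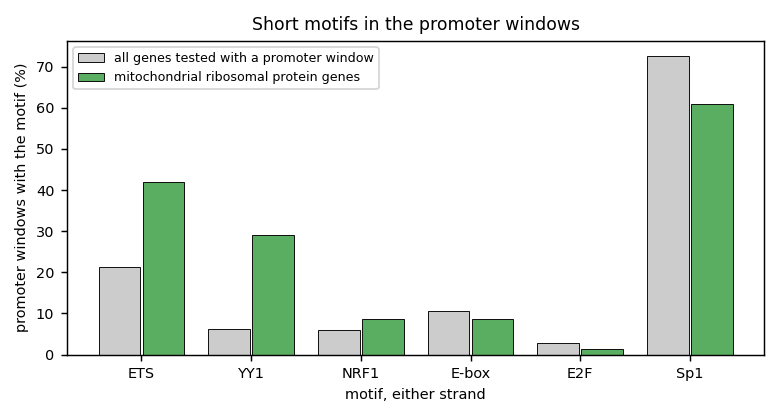
Percent of promoter windows that hold each of 6 short motifs on either strand, for the 69 mitochondrial ribosomal protein genes with a window (green bars) and for the 8589 genes tested with a window (grey bars). The green bar stands above the grey bar for ETS (42.0% against 21.2%) and YY1 (29.0% against 6.16%), and below it for Sp1 (60.9% against 72.7%).

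Of the 11 genes that were lower, 6 held the ETS motif (MRPL48, MRPL51, MRPL52, MRPL54, MRPS18C and MRPS33), 3 the YY1 motif (MRPL22, MRPL51 and MRPL52) and 3 the NRF1 motif (MRPL22, MRPL52 and MRPS18C). Of the 3 that were higher, 1 held the ETS motif (MRPS23) and 0 held the YY1 or the NRF1 motif. None of the 3 motifs was in the windows of 4 lower genes (MRPL1, MRPL11, MRPL39 and MRPS5) and of 2 higher genes (MRPS2 and MRPS25). A match is a run of letters, and binding of these factors was not measured in these libraries.

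The median log2 fold change over the 73 genes was −0.10, with quartiles of −0.42 and 0.07. Over all genes tested the median was 0.00, with quartiles of −0.32 and 0.31. Of the 73 values, 43 were below 0 and 30 above. Set against the DMSO mean of each gene, the family's median was 0.03, −0.01 and 0.00 on the log2 scale in DMSO replicates 1 to 3 and −0.12, −0.12 and −0.11 in the abemaciclib replicates. The 3 abemaciclib libraries thus lay below the 3 DMSO libraries, whose medians lie near 0 because the values were centred on them. The SD of this median between libraries of a group, pooled over both groups, was 0.0166. The same SD was 0.0928 for cytosolic ribosomal protein genes, 0.0827 for respiratory chain subunit genes and 0.00346 over all genes tested. This shift of the median was not tested. The standard error (SE) of the log2 fold change of a single gene of the family had a median of 0.17. Every abemaciclib library lay below every DMSO library for 21 of the 73 genes and above for 4 of the 73. Over all 10863 genes tested, this held for 2180 genes (20.1%) below and for 2070 genes (19.1%) above.

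**Figure D2:**
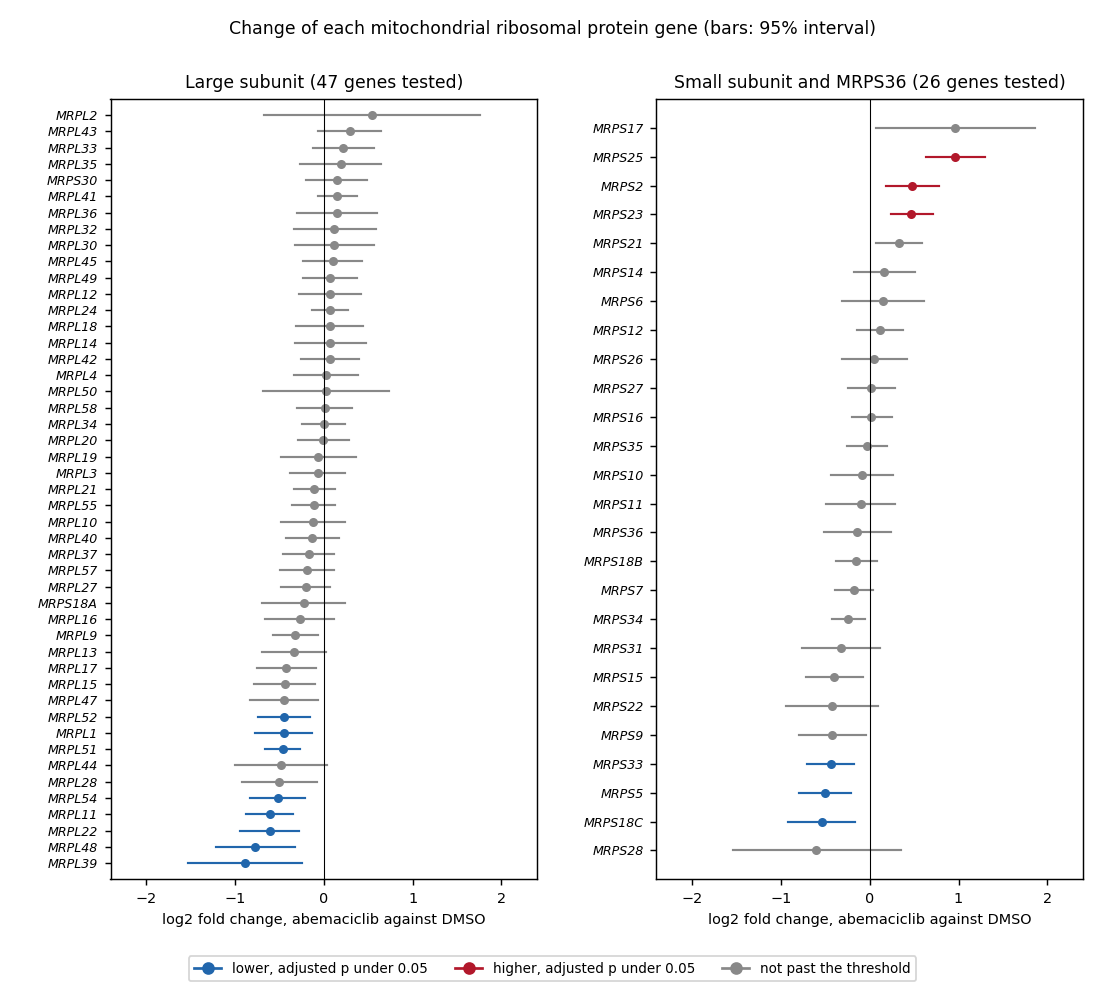
Log2 fold change of each of the 73 genes tested, abemaciclib against DMSO (points), with its 95% interval (lines), for the large subunit on the left and the small subunit with MRPS36 on the right. Blue marks the 11 genes lower and red the 3 genes higher at an adjusted P under 0.05, and all 3 red points are in the small subunit.

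Summed over all 78 genes, the level was 5315, 5171 and 5195 CPM in the DMSO libraries and 4875, 4722 and 4898 CPM in the abemaciclib libraries. The means were 5227 ± 77.3 CPM and 4832 ± 95.4 CPM (SD, n = 3 in each group), a ratio of 0.924, and the groups did not overlap. As a share of all counts the family took 0.523% ± 0.00521 with DMSO and 0.478% ± 0.0033 with abemaciclib (SD, n = 3 in each group), a difference of −0.0447 percentage points that lay between −0.0475 and −0.0423 when each library was left out. Genes for the large subunit went from 0.323% to 0.288% of counts and those for the small subunit from 0.196% to 0.187%. The 11 lower genes, chosen by these same values, had a summed level of 1020 CPM with DMSO and 719.5 CPM with abemaciclib, and the 3 higher genes 161.9 and 240.5 CPM. The other 64 genes went from 4045 to 3872 CPM, a ratio of 0.957. No test was made of these sums.

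**Figure D3:**
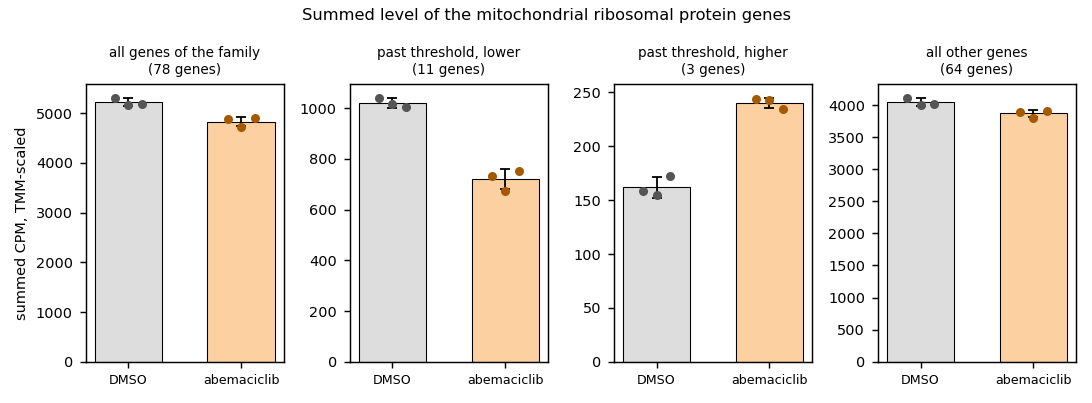
Summed TMM-scaled CPM per library (points) with the mean (bars) and SD (error bars, n = 3) in DMSO and abemaciclib libraries, for all 78 genes, the 11 lower, the 3 higher and the other 64. The scale differs between panels; the mean of all 78 genes is 5227 with DMSO and 4832 with abemaciclib.

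The large subunit, which joins amino acids into the chain, is encoded by 51 of the genes, and MRPS30 and MRPS18A are counted with it despite their names because their proteins sit there. Of 47 tested, 8 (17.0%) were lower, against 13.3% of all genes tested, and 0 were higher, against 12.5%. At an unadjusted P under 0.05, 13 of the 47 were lower, against 1986 of the 10863 genes tested. At the same threshold 0 were higher as well, against 1940 of all genes tested, and by DESeq2 0 were higher too. The median log2 fold change was −0.11. Among 29 tested genes with a bacterial counterpart 3 were lower, and among 18 tested mitochondria-specific genes 5 were lower, with medians of −0.07 and −0.15. The count of lower large subunit genes was 3 without DMSO replicate 3, and 1 gene, MRPL41, was higher without abemaciclib replicate 3.

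MRPL51 was the most abundant of the lower genes, at 433, 431 and 397 CPM in the DMSO libraries and 308, 280 and 328 CPM in the abemaciclib libraries. The protein is specific to mitochondria, and the nearest libraries of the groups were further apart than the whole range within either. The gene lies on chromosome 12 of GRCh38 from 6491886 to 6493841, and its log2 fold change was −0.46 (SE 0.10, adjusted P = 0.00055). Of the fall of 395.0 CPM in the summed level of the family, the sum without MRPL51 left a fall of 280.0 CPM.

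MRPL11 is the counterpart of the bacterial protein at the site where translation factors dock on the large subunit. Its levels were 95.7, 86.8 and 98.1 CPM with DMSO and 59.3, 63.2 and 61.3 CPM with abemaciclib. All abemaciclib libraries were lower, with little spread among them (chromosome 11, 66435075 to 66466738, log2 fold change −0.61, SE 0.13, adjusted P = 0.000575). MRPL22, whose bacterial counterpart lines the tunnel through which the new chain leaves, was at 59.5, 60.3 and 52.7 CPM with DMSO and at 44.8, 35 and 33.5 CPM with abemaciclib. Its log2 fold change was −0.61 (SE 0.16, adjusted P = 0.00495), on chromosome 5 from 154941073 to 154969411. MRPL51, MRPL11 and MRPL22 passed the threshold in all 12 alternatives to the main settings.

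MRPL48, a mitochondria-specific protein of the central protuberance, was at 28.4, 28.5 and 35.7 CPM with DMSO and at 13.3, 19.2 and 21.6 CPM with abemaciclib. Its log2 fold change was −0.77 (SE 0.22, adjusted P = 0.00889). MRPL39, another mitochondria-specific protein, had the lowest log2 fold change of the family at −0.89, and one of its lowest levels. It had 36, 59 and 47 counts with DMSO and 24, 36 and 24 counts with abemaciclib, so the highest abemaciclib library equalled the lowest DMSO library in counts and was below it only after scaling (10.4 against 8.88 CPM). Its adjusted P was 0.0346. MRPL48 lost its call without DMSO replicate 3 (log2 fold change −0.65) or abemaciclib replicate 1 (−0.59). MRPL39 did not pass by DESeq2 (−0.89), nor when replicate 2 (−0.70) or 3 (−0.88) of the DMSO group or replicate 1 (−0.86) or 3 (−0.79) of the abemaciclib group was left out.

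MRPL54 and MRPL52 are mitochondria-specific as well. MRPL54 was at 80.3, 74.6 and 89.3 CPM with DMSO and at 62.0, 43.2 and 65.9 CPM with abemaciclib, and abemaciclib replicate 2 was the lowest library by far. MRPL52 was at 84.4, 69.2 and 78.7 CPM and at 65.3, 51.1 and 53.8 CPM, so that the nearest libraries of the groups were a few CPM apart. MRPL1, whose bacterial counterpart forms the stalk beside the exit site for spent transfer RNA, was at 56.6, 57.3 and 55.4 CPM and at 39.3, 48.4 and 36.2 CPM. The DMSO libraries of MRPL1 were close together and the spread was among the abemaciclib libraries.

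The log2 fold changes of these 3 genes were −0.52 for MRPL54 (adjusted P = 0.0112), −0.45 for MRPL52 (adjusted P = 0.0174) and −0.45 for MRPL1 (adjusted P = 0.033). MRPL54 lost its call without DMSO replicate 3 (−0.45) or abemaciclib replicate 2 (−0.34). MRPL52 lost its call without DMSO replicate 1 (−0.39), DMSO replicate 3 (−0.44) or abemaciclib replicate 2 (−0.38). MRPL1 kept its call without abemaciclib replicate 2 and lost it without any other library, with log2 fold changes from −0.46 to −0.36, with DESeq2 and with no filter on low counts.

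**Figure D4:**
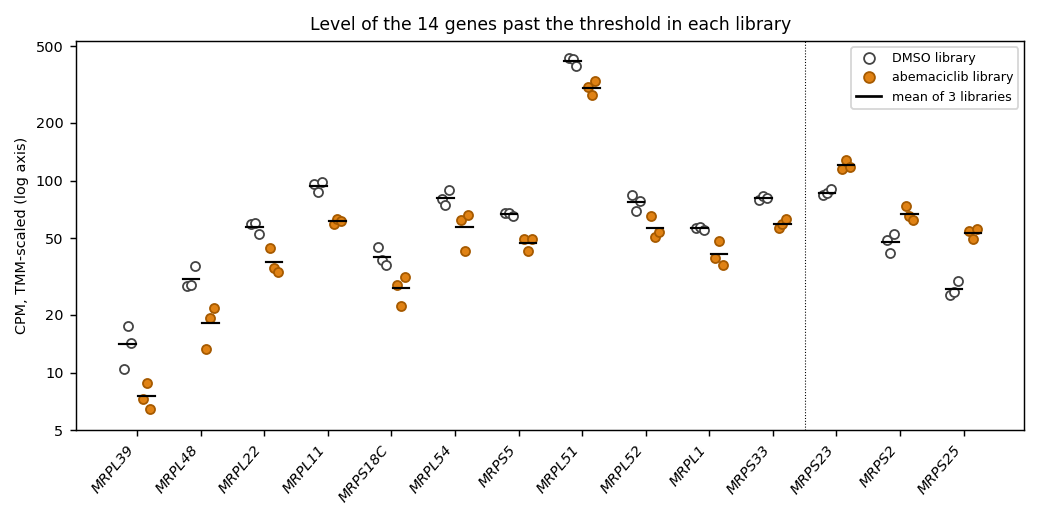
TMM-scaled CPM on a log axis of the 14 genes past the threshold in each DMSO library (open points) and abemaciclib library (orange points), with the mean of the 3 libraries as a line. Genes are ordered by log2 fold change, with the 11 lower genes left of the dotted line. In each of the 14 the groups do not overlap.

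The small subunit holds the messenger RNA and reads its codons, and 26 of the genes encode it. Of 25 tested, 3 (12%) were higher and 3 (12%) lower, close to the 12.5% and 13.3% of all genes tested, with a median of −0.09 on the log2 scale. Among 15 tested genes with a bacterial counterpart 1 was higher and 2 were lower, and among 10 mitochondria-specific genes 2 were higher and 1 was lower. Without abemaciclib replicate 2 the small subunit had 5 higher genes and 1 lower gene.

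MRPS25, a mitochondria-specific protein, rose most of the genes that passed. It was at 25.5, 26.4 and 30.0 CPM with DMSO and at 54.5, 49.9 and 55.7 CPM with abemaciclib, so that the groups were separated by more than the whole range within either. The log2 fold change was 0.96 (SE 0.17, 95% interval 0.63 to 1.30, adjusted P = 5.39e-05), a 1.95-fold higher level, for the gene on chromosome 3 from 15009611 to 15065339. The 3′ end of MRPS25 overlaps NR2C2 on the opposite strand, and the strand setting of the counting is not given in the sources used here. NR2C2 had 200 counts over the 6 libraries against 864 for MRPS25, and its log2 fold change was −1.03 (adjusted P = 0.0242), in the other direction.

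MRPS23 is mitochondria-specific too and was more abundant than MRPS25 in every library. Its levels were 83.8, 85.9 and 89.9 CPM with DMSO and 115, 128 and 117 CPM with abemaciclib (chromosome 17, 57834781 to 57850056, log2 fold change 0.47, SE 0.12, adjusted P = 0.00282). No other gene of the annotation overlaps its 3′ end. MRPS2, which has a bacterial counterpart, was at 49.3, 42.2 and 52.7 CPM and at 73.8, 65.2 and 62.1 CPM. Its log2 fold change was 0.48 (SE 0.15, adjusted P = 0.0154), and the call was lost without DMSO replicate 2 (0.39) or abemaciclib replicate 1 (0.41). An annotated gene on the opposite strand at the 3′ end of MRPS2 had 0 counts.

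MRPS33, a mitochondria-specific protein, was at 79.5, 82.6 and 81.1 CPM with DMSO and at 56.3, 59.5 and 63.0 CPM with abemaciclib. Its log2 fold change was −0.44 (SE 0.13, adjusted P = 0.0118). Together with MRPS23 and MRPS25 it passed the threshold in all 12 alternatives. MRPS5, whose bacterial counterpart lines the channel where messenger RNA enters, was at 67.9, 68.0 and 65.7 CPM and at 49.9, 42.9 and 49.4 CPM. The log2 fold change of MRPS5 was −0.50 (SE 0.14, adjusted P = 0.00848), and −0.43 without abemaciclib replicate 2, where it did not pass.

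MRPS18C, the counterpart of bacterial protein S18, was at 45.0, 38.6 and 36.3 CPM with DMSO and at 28.7, 22.2 and 31.6 CPM with abemaciclib. Its log2 fold change was −0.54 (SE 0.19, adjusted P = 0.0302), and its counts are uncertain. Its 3 annotated pseudogenes held 76 counts against 707 of its own, and its 3′ end overlaps ABRAXAS1 on the opposite strand, which had 154 counts. It did not pass by DESeq2 (−0.53), nor when replicate 1 (−0.45) or 2 (−0.57) of the DMSO group or replicate 2 of the abemaciclib group (−0.40) was left out.

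The 6 most abundant genes of the family held 32.1% of its counts, and MRPL51 alone of them passed the threshold. MRPS34, a mitochondria-specific protein that the small subunit needs for its stability, was the most abundant, at 445, 439 and 463 CPM with DMSO and at 388, 387 and 369 CPM with abemaciclib. Its groups did not overlap, but with a log2 fold change of −0.24 (SE 0.09) its adjusted P was 0.0551. It passed with DESeq2 (adjusted P = 0.0386), with library totals as the only scaling (0.0421) and with a minimum of 10 counts (0.0448), and its adjusted P lay above 0.05 in the other alternatives.

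MRPL41, a mitochondria-specific protein, was at 256, 261 and 278 CPM with DMSO and at 339, 296 and 249 CPM with abemaciclib. The abemaciclib libraries spread on both sides of the DMSO libraries, and the log2 fold change was 0.15 (95% interval −0.07 to 0.37, adjusted P = 0.327). Without abemaciclib replicate 3 it was 0.26 and passed. MRPL24, whose bacterial counterpart lies at the mouth of the exit tunnel, was at 221, 225 and 226 CPM and at 228, 251 and 229 CPM, with a log2 fold change of 0.07 (95% interval −0.13 to 0.27). MRPL21 and MRPS7, both with bacterial counterparts, had log2 fold changes of −0.11 (95% interval −0.34 to 0.13) and −0.18 (95% interval −0.39 to 0.04). The value of MRPL21 was 0.01 without abemaciclib replicate 2, and the 3′ end of MRPS7 overlaps MIF4GD, which had 813 counts, on the opposite strand.

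**Figure D5:**
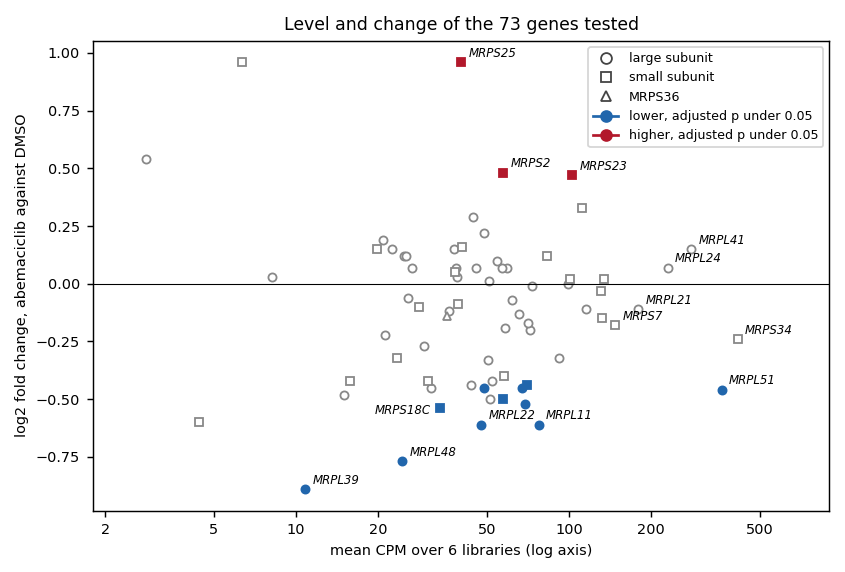
Mean CPM over the 6 libraries (log axis) against log2 fold change, abemaciclib against DMSO, for the 73 genes tested, with circles for the large subunit, squares for the small subunit and a triangle for MRPS36. Filled blue and red points passed the threshold, lower and higher. Of the 6 most abundant genes MRPL51 alone is filled, and the 5 filled blue points without a name are MRPL1, MRPL52, MRPL54, MRPS5 and MRPS33.

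Over the 73 genes the mean level ran from 2.82 to 415 CPM, with 13 genes at 100 CPM or more and 4 under 10 CPM. The median was 50.7 CPM with DMSO and 46.8 CPM with abemaciclib. Of the 59 genes that did not pass, 8 had a negative log2 fold change at an unadjusted P under 0.05, from −0.50 for MRPL28 to −0.24 for MRPS34. The 2 with a positive one were MRPS17 and MRPS21. With the genes that passed included, 19 of the 73 were lower and 5 higher at this unadjusted threshold. Over all 10863 genes tested, 1986 were lower and 1940 higher at it. MRPS17 had 12, 15 and 16 counts with DMSO and 43, 18 and 29 with abemaciclib, and its log2 fold change of 0.96 had a 95% interval from 0.07 to 1.86. MRPS21, at 93.1, 104 and 102 CPM and at 132, 99.5 and 145 CPM, had an adjusted P of 0.0573 at a log2 fold change of 0.33, and the groups overlapped. The 95% interval lay within 0.5 of 0 on the log2 scale for 32 of the 73 genes and within 1 for 67, so that for most of the family these libraries leave room for changes of moderate size.

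MRPS36 carries the name of the family, but its protein is known as an adaptor of the 2-oxoglutarate dehydrogenase complex and is not a mitoribosome subunit. It was at 40.3, 35.7 and 36.3 CPM with DMSO and at 31.2, 42.7 and 28.1 CPM with abemaciclib, and the groups overlapped. The log2 fold change was −0.14 (95% interval −0.51 to 0.24, adjusted P = 0.649).

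The remaining 5 genes had too few counts for a test. MRPL53 had 0 counts in every library, and CCDC142, which overlaps its 3′ end on the same strand, had 94. MRPS24, MRPL46 and MRPL38 had 3, 6 and 7 counts in all, and each shares its 3′ end with an annotated gene on the same strand that had 0 counts. Whether reads at these shared ends went uncounted was not tested, so the low counts do not show low levels. MRPL23, whose 3′ end overlaps no other gene, had 14, 8 and 6 counts with DMSO and 4, 4 and 6 with abemaciclib. Over the family, another gene overlapped the last 500 bases in 21 genes. Among the 57 without such a gene 56 were tested, and 10 (17.9%) were lower and 1 (1.79%), MRPS23, was higher. Over all genes tested 13.3% were lower and 12.5% higher. Of the 17 tested genes with such a gene 1 was lower and 2 were higher. Pseudogenes of the family held 123 counts, against 106263 for the genes themselves.

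The mitoribosome has subunits under other names, and 5 of these were tested. GADD45GIP1, a large subunit protein near the exit tunnel, was at 113, 113 and 110 CPM with DMSO and at 92.0, 79.5 and 71.1 CPM with abemaciclib. It was the only one of the 5 past the threshold (log2 fold change −0.47, adjusted P = 0.00466), and the median of the 5 was −0.12. Its counts are uncertain, as for the other genes whose 3′ end is shared. DAP3, CHCHD1, AURKAIP1 and PTCD3 had values from −0.26 to 0.26.

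Of 26 genes for mitoribosome assembly and the modification of its RNA, 23 were tested, with a median of 0.08 on the log2 scale. Beside 12.5% higher and 13.3% lower of all genes tested, 1 of the 23 was higher and 1 lower. Both are known as pseudouridine synthases of mitochondrial RNA. TRUB2 was at 32.8, 35.9 and 37.5 CPM with DMSO and at 50.5, 53.1 and 50.3 CPM with abemaciclib (log2 fold change 0.53, adjusted P = 0.0122). RPUSD3 was at 45.2, 46.3 and 64.8 CPM and at 37.5, 28.1 and 32.7 CPM (−0.67, adjusted P = 0.00516). TRUB2 lost its call without DMSO replicate 1 (0.48), and RPUSD3 without DMSO replicate 3 (−0.49).

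Of 19 translation factors of mitochondria 16 were tested, 1 was higher, against 12.5% of all genes tested, and 0 were lower, against 13.3%. At an unadjusted P under 0.05, 2 were higher, against 1940 of the 10863 genes tested. At the same threshold 0 were lower as well, against 1986 of all genes tested, and the median was 0.09. The higher gene past the adjusted threshold was TUFM, the elongation factor that brings aminoacyl transfer RNA to the mitoribosome. It was at 211, 202 and 202 CPM with DMSO and at 295, 261 and 290 CPM with abemaciclib, well apart from each other. Its log2 fold change was 0.46 (SE 0.10, adjusted P = 0.000766).

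Of 14 regulators of mitochondrial transcription and biogenesis 13 were tested. Of these, 0 were higher, against 12.5% of all genes tested, and 1 was lower, against 13.3%. This was GABPB1, the partner subunit of the ETS factor GABPA. GABPB1 was at 22.0, 25.8 and 24.5 CPM with DMSO and at 10.6, 12.1 and 12.7 CPM with abemaciclib, which is −1.03 on the log2 scale (SE 0.23, adjusted P = 0.00135). GABPA itself was at 11.3 ± 4.14 and 7.41 ± 1.22 CPM (SD, n = 3 in each group), and its log2 fold change of −0.61 did not pass (95% interval −1.32 to 0.10). NRF1 (−0.64, 95% interval −1.48 to 0.20), YY1 (−0.14, −0.34 to 0.07) and TFAM (−0.04, −0.29 to 0.22) did not pass either, with the wide intervals at the low levels of GABPA and NRF1.

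These 4 lists together held 64 genes, of which 57 were tested, 2 were higher and 3 lower (8.77%), with a median log2 fold change of 0.01. Beside them, 80 tested genes for cytosolic ribosomal proteins, which make up the ribosome outside mitochondria, had 3 higher and 11 lower and a median of −0.02. The 79 tested nuclear genes for respiratory chain subunits, whose partners the mitoribosome makes, had 13 higher and 5 lower and a median of 0.07. Genes that passed in either direction were 17.5% of the cytosolic and 22.8% of the respiratory chain list, against 25.7% of all genes tested. Differences between these lists were not tested.

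With DESeq2, the tool of the study, 12 of the 74 mitochondrial ribosomal protein genes with an adjusted P passed the threshold, 3 higher and 9 lower. Over the whole table, 2234 of 11554 genes with an adjusted P passed (19.3%). DESeq2 called MRPS34 in addition and left out MRPL1, MRPL39 and MRPS18C. Across all 12 alternatives 6 of the 14 genes passed each time, which were MRPL11, MRPL22, MRPL51, MRPS23, MRPS25 and MRPS33.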

How the data were processed

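The 6 RNA-seq libraries came from the parental line ZR-75-1 and were grouped by the labels as 3 DMSO and 3 abemaciclib (500 nM) libraries of 4 days. The deposited values are raw counts per gene, which the authors made by trimming single-end 3′ mRNA reads, aligning them to hg38 with STAR 2.7.5b and counting with featureCounts 2.0.1 (versions from the submitters' processing notes), without normalization or filter. Library totals were 3317860 to 4013156.

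Symbols and coordinates were matched by identifier to GENCODE release 44, a later release than that of the counts, which gave a symbol for 60401 of 60656 identifiers. The counts were fitted with edgeR 4.0.16 under R 4.3.3 (filter by filterByExpr, TMM factors, glmQLFit, glmQLFTest, group as the only term, Benjamini–Hochberg adjustment over 10863 genes, threshold 0.05 on the adjusted P). A standard error is the size of the log2 fold change divided by the square root of F, and 95% intervals use the t distribution. CPM are TMM-scaled. The biological coefficient of variation was 13.2%. The fit was tested on simulated counts. A gene at the 3′ end is one with an exon within the last 500 bases.

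The genes of the family and the lists were chosen with earlier results of these data known. Named were all genes of the family past the threshold, the 6 most abundant, MRPS36 and, in the other lists, the genes past the threshold. Other genes (the genes too low for a test, MRPL2, MRPL28, MRPS17, MRPS21, MRPS18A, MRPS18B, MRPS28, the remaining subunits under other symbols and the regulators GABPA, NRF1, YY1 and TFAM) were named after their values were seen. Alternatives were DESeq2 1.42.0, its size factors, library totals, other filters, a replicate block and each library left out.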

Additional observations from a re-analysis of the deposited data

How the results depend on the processing

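Of 160 alternative values of the counts, medians and shares, 134 stayed close to the reported value and 26 moved. Of 216 alternative counts and medians of the smaller lists, 192 stayed close and 24 moved. Of 300 alternative values for single genes, 266 had the same direction and call, 29 lost and 4 gained significance and 1 reversed, MRPL21, whose log2 fold change was −0.24 to 0.01 when each library was left out. Library totals as the only scaling gave a median log2 fold change of −0.12 for the family and 5 lower small subunit genes, and 19 genes of the family (26.0%) passed. With this scaling 1266 of all 10863 genes tested were higher and 1506 lower, and the median over all genes tested was −0.02. The causes of these shifts were not tested. An alternative chosen after seeing the data, which counted only genes with no other gene at the 3′ end, left 1 higher gene in the family and 1 in the small subunit and a small subunit median of −0.06. Leaving out 1 library at a time, the family had 2 to 5 higher and 6 to 13 lower genes and a median of −0.11 to −0.07. In the same fits 981 to 1412 of all genes tested were higher and 1132 to 1529 lower, against 1354 and 1442 with all libraries. The large subunit had 0 to 1 higher and 3 to 9 lower genes and a median of −0.11 to −0.07. The small subunit had 2 to 5 higher and 1 to 4 lower genes and a median of −0.09 to 0.00. The other mitochondrial translation genes had 1 to 4 higher and 2 to 4 lower genes and a median of −0.02 to 0.10.

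The counts gave no sign that the replicate numbers pair the libraries, with correlations of −0.043, 0.007 and −0.089 between the deviations of same-numbered libraries. These values cannot show whether the cultures were set up in pairs. With the replicate block, 3 genes of the family were higher and 10 lower, and MRPL1 lost its call. Over all genes tested, 1139 were higher and 1280 lower with the block, against 1354 and 1442 without it. At this depth, genes of a few CPM, such as MRPL2, MRPS17 and MRPS28, had intervals too wide to show a change of moderate size.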

Other observations

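The medians of the promoter groups were looked at after the values of the genes were known. The 6 genes with an NRF1 motif in the promoter window had a median log2 fold change of −0.44 and the other 59 tested genes with a window −0.03. For the ETS motif the medians were −0.20 (27 genes) and 0.01 (38 genes), and for the YY1 motif −0.01 (17 genes) and −0.08 (48 genes). The groups overlap in their genes and were not tested.

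Human cells have several relatives of bacterial protein S18 in the mitoribosome. MRPS18C passed the threshold at −0.54, MRPS18B had a log2 fold change of −0.15 (95% interval −0.38 to 0.08) and MRPS18A, whose protein is part of the large subunit, −0.22 (−0.69 to 0.24). The difference between them was not tested.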
